A study of Rattus norvegicus with 192 samples.

Results

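Acetochlor, alachlor and dimethenamid are chloroacetamide herbicides, and their transcript profiles were taken in primary hepatocytes isolated from male rats and plated on collagen. The 18 libraries whose labels name 1 of the 3 compounds were used, out of 192 in the series, and each compound has 6 libraries, 1 per dose. Acetochlor and alachlor were given at 0.14, 0.4, 1.2, 3.7, 11.1 and 33.3 µM on plate 1, and dimethenamid at 0.4, 1.2, 3.7, 11.1, 33.3 and 100 µM on plate 2. The controls were 8 libraries of hepatocytes given the solvent DMSO, 2 on plate 1, 3 on plate 2 and 3 on plate 3, and all cells were exposed for 24 h. The labels give neither the strain and age of the rats nor the number of animals behind the cells. DMSO replicate 1, which lies apart from the other DMSO libraries, was left out. The assay was TempO-Seq, which counts ligation products of neighbouring short probes bound to the same RNA. Levels are given as CPM, counts scaled to the total of the library, and can be compared between libraries for a gene but not between genes.

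The 3 compounds share a chlorinated acetamide group, which is the part of the molecule that reacts with the thiol of glutathione. In plants these herbicides block the elongation of very-long-chain fatty acids. In liver, glutathione transferases join the chloroacetamide group to glutathione, and cytochrome P450 enzymes remove groups from the nitrogen. Loss of glutathione and reactive electrophiles release the transcription factor NRF2, which raises genes for glutathione transferases, glutathione synthesis and NADPH supply. Alachlor carries a methoxymethyl group on the nitrogen and a phenyl ring with a pair of ethyl groups. Acetochlor is its isomer, with an ethoxymethyl group on the nitrogen and a phenyl ring that has an ethyl and a methyl group. Dimethenamid has a methyl-substituted thiophene ring in place of the phenyl ring and a methoxy-substituted alkyl group on the nitrogen.

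The 18 treated libraries held 4313284 to 9662604 counts with a median of 6315110, and the 8 DMSO libraries held 2876741 to 8513985. In DMSO replicate 5 many probes departed from the other DMSO libraries of its plate, and each library was placed on that direction with a score of 0 at the mean of DMSO replicates 4 and 6 and 1 at DMSO replicate 5. The alachlor library at 33.3 µM scored 1.19 and the acetochlor library at 3.7 µM scored 0.496, while the other 16 treated libraries lay between -0.313 and 0.337. Tested against the other 7 DMSO libraries, DMSO replicate 5 had 2678 of 11055 probes past the threshold, 24.2% of those tested, and each other DMSO library had 0 called and 80 to 444 at an unadjusted p under 0.05 in edgeR. Hepatocyte markers were abundant in all libraries, at a summed level of 35180 to 56940 CPM in DMSO and 32890 to 53200 CPM with the compounds. The sum covers the 15 of 16 listed markers that had a tested probe. The alachlor trends are given with and without the library at 33.3 µM.

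**Figure D1:**
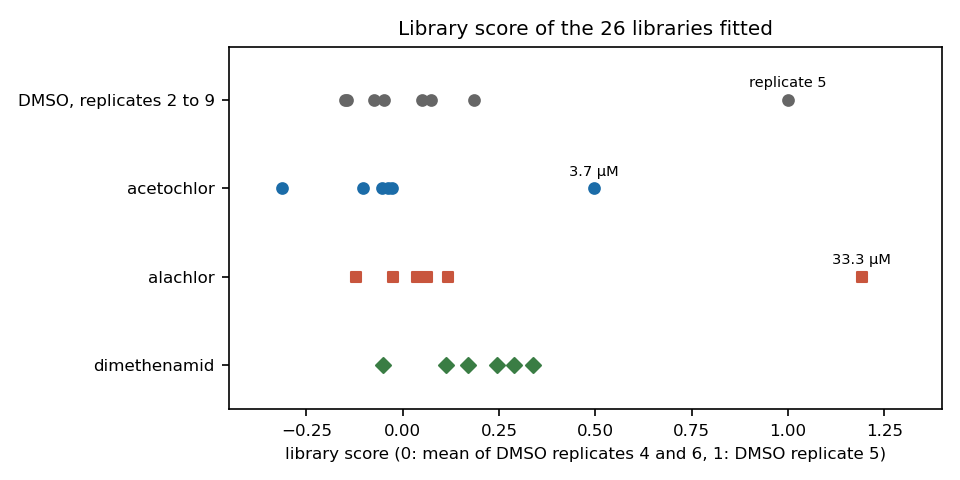
Library score (horizontal axis, no unit, 0 at the mean of DMSO replicates 4 and 6 and 1 at DMSO replicate 5) of the 8 DMSO libraries and the 6 libraries of each compound, 1 point per library. The alachlor library at 33.3 µM lies at 1.19, beside DMSO replicate 5, and the other 5 alachlor libraries lie between -0.123 and 0.119.

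The first question was which transcripts moved with dose across the 3 compounds. For each probe a slope on the logarithm of dose was fitted for each compound, with DMSO as dose 0. It is printed as the log2 change predicted at 33.3 µM, ± its standard error. Plate was a term in the fit, so each slope was set against the DMSO libraries of its own plate. DMSO on plate 3, which held no chloroacetamide, added only to the estimate of spread. The mean of the 3 slopes is called the class trend, and a probe was called at an adjusted p below 0.05. Of 11055 probes, 6 were called higher in the class trend (0.0543% of those tested) and 4 lower (0.0362%), and 1391 had an unadjusted p under 0.05. The higher ones described here were Ptgr1, Gsta2, Gstp1, Slc25a48 and Ahnak, and the 4 lower were Lcn2, Slc22a8, Sept4 and Rem1. Without the 33.3 µM library of alachlor the count was 0 (557 unadjusted), as it was without that of acetochlor (909 unadjusted), and it rose to 23 without alachlor at 11.1 µM or without dimethenamid at 0.4 µM. It was 16 and 19 without acetochlor at 0.14 and 11.1 µM, 4 without DMSO replicate 2 or 3, and 6 without DMSO replicate 6. Many libraries of other chemicals also left the DMSO range for these genes, with counts given after the results by dose.

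Ptgr1, which encodes prostaglandin reductase 1, an NADPH-dependent enzyme that reduces reactive unsaturated carbonyls, was higher with all 3 compounds. The lowest, median and highest DMSO library read 149, 171 and 223 CPM. From 0.14 to 33.3 µM, acetochlor gave 181, 275, 269, 252, 304 and 373 CPM and alachlor 157, 265, 276, 262, 279 and 339 CPM. Dimethenamid gave 229, 269, 294, 349.6, 333 and 327 CPM from 0.4 to 100 µM. All libraries at 0.4 µM and above lay above the highest DMSO library, and both libraries at 0.14 µM lay within the DMSO range. The fitted log2 change of Ptgr1 was 0.92 ± 0.25 for acetochlor, 0.91 ± 0.25 for alachlor and 0.95 ± 0.21 for dimethenamid, and 0.93 ± 0.15 for the class (1.90-fold, adjusted p = 0.0139, edgeR's quasi-likelihood test).

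Gsta2 and Gstp1, which encode enzymes that join electrophiles to glutathione, were both called higher in the class trend. Gsta2, an alpha-class transferase, read 207, 237 and 279.5 CPM in the lowest, median and highest DMSO library. Acetochlor gave 195, 213, 226, 277, 227 and 360.4 CPM, alachlor 225, 238, 234, 213, 254 and 290.4 CPM and dimethenamid 217, 209.6, 241, 299, 263 and 283 CPM in order of dose. Above the DMSO range lay 4 of the 18 libraries, at 33.3 µM of acetochlor and alachlor and at 11.1 and 100 µM of dimethenamid. The class change of Gsta2 was 0.49 ± 0.094 (adjusted p = 0.0306). Close relatives in the alpha family can share probe sequence, so the member of the family is uncertain.

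Gstp1, the pi-class transferase, which is scarce in normal adult rat liver, read 24.3, 32.2 and 70.9 CPM in the lowest, median and highest DMSO library, and the highest was DMSO replicate 5. Acetochlor gave 39.6, 39.4, 32.9, 68.7, 42.3 and 52.8 CPM and alachlor 32.7, 30.0, 41.2, 39.4, 51.4 and 149 CPM. Dimethenamid gave 47.4, 32.2, 45.2, 39.1, 52.4 and 67.9 CPM. The alachlor library at 33.3 µM was the only 1 of the 18 above the DMSO range, and the next DMSO library after replicate 5 read 54.9 CPM. The fitted change of Gstp1 was 1.03 ± 0.38 for acetochlor, 1.99 ± 0.33 for alachlor (adjusted p = 0.0220), 0.38 ± 0.29 for dimethenamid and 1.13 ± 0.22 for the class (adjusted p = 0.0306). Without the alachlor library at 33.3 µM and DMSO replicate 5, the class change was 0.79 (adjusted p = 0.482).

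The promoters of both transferases are shown because each holds a match to TGACNNNGC, the core of the antioxidant response element through which NRF2 acts. The sequences are from RefSeq (build GRCr8), in windows from 250 bases before to 50 after the start of the gene, and both strands were searched. Of all 33469 such windows of 300 bases, 12.1% hold a match. In the Gstp1 promoter (chr1:210769706-210769955, minus strand) the match, in capitals, lies -61 to -53 bases from the start. In the Gsta2 window the match lies on the opposite strand, 37 to 45 bases after the start (chr8:88077043-88077066, minus strand), and appears in capitals as read on the strand of the gene. Of the other class genes, Slc25a48 has a match on the opposite strand -140 to -132 bases from the start in 1 of its 2 windows, and the Ahnak window has none.
Gstp1: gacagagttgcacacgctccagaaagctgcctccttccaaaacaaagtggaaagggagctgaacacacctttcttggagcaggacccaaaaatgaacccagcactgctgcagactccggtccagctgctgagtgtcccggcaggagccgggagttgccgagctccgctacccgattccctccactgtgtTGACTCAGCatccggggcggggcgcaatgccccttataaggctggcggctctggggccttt
Gsta2: cacgactctcGCTAGGTCAgtact

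**Figure D2:**
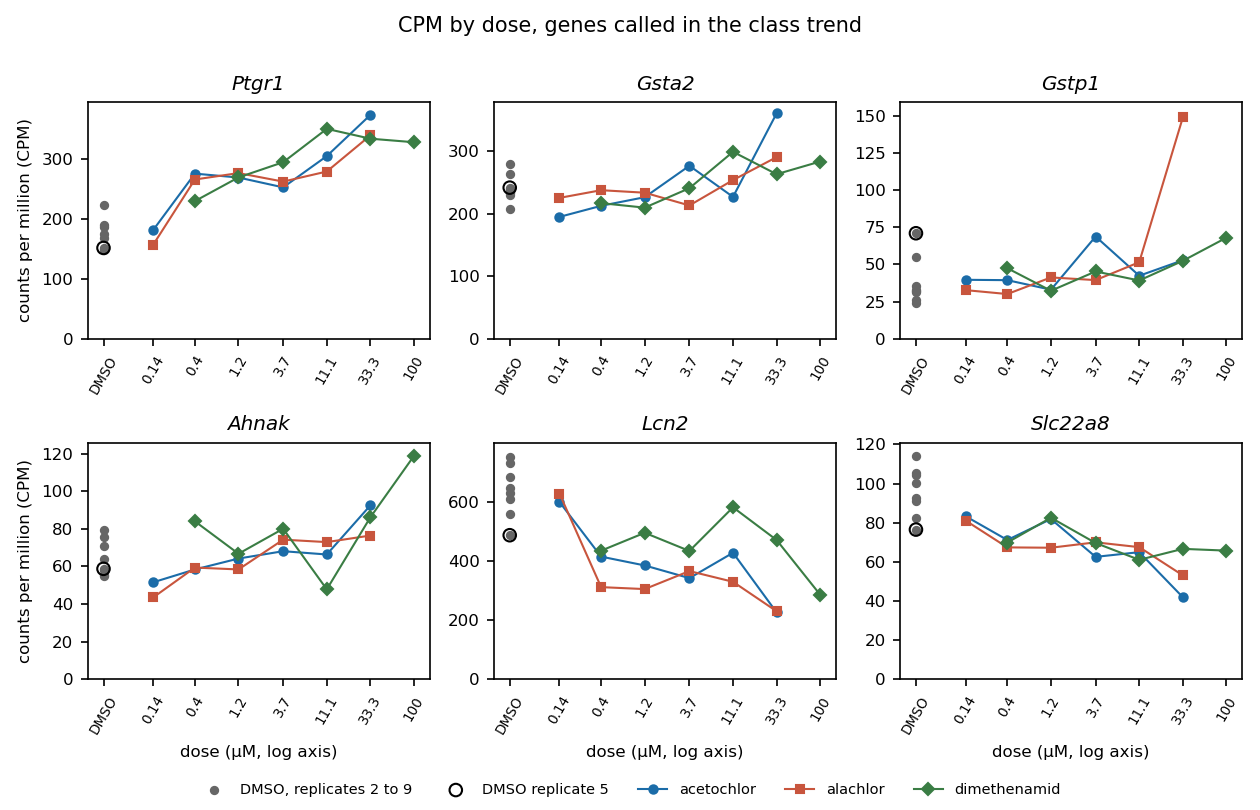
CPM (vertical axis, linear from 0) against dose in µM (log axis, DMSO at the left) for 6 genes called in the class trend, 1 point per library, with DMSO replicate 5 ringed. Ptgr1 leaves the DMSO range from 0.4 µM with all 3 compounds, whereas Gstp1 leaves it in 1 library, alachlor at 33.3 µM.

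The NRF2 list had 29 genes with a tested probe, and 2 of them, Ptgr1 included, were called higher in the class trend and 0 lower, against 0.0543% of all probes called higher. The list's median class change was 0.15, with 22 of 29 positive, and the median of all probes was -0.0086. The other tested members did not pass in the class trend. Hmox1, the haem-degrading enzyme haem oxygenase 1, was at 0.62 ± 0.25 (adjusted p = 0.298), and Gclc, the catalytic subunit of the enzyme that limits glutathione synthesis, was at 0.31 ± 0.12 (adjusted p = 0.273). Its modifier subunit Gclm was at 0.068 ± 0.14, Srxn1, which repairs oxidised peroxiredoxins, at 0.23 ± 0.14 and Txnrd1, thioredoxin reductase, at -0.19 ± 0.13. The direction of Gclm and Txnrd1 changed with the fit. The list for glutathione conjugation and turnover had 20 tested genes, 2 called higher (Gsta2 and Gstp1), 0 called lower and a median of 0.037.

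Nqo1, a quinone reductase and a common readout of NRF2, did not follow a single direction. The DMSO libraries spanned 56.4 to 69.9 CPM with a median of 65.1. Acetochlor gave 27.8, 41.7, 43.3, 70.5, 55.1 and 94.4 CPM, alachlor 78.9, 49.4, 50.8, 45.3, 47.4 and 86.3 CPM and dimethenamid 37.1, 24.6, 41.2, 28.7, 39.5 and 63.8 CPM in order of dose. Below the DMSO range lay 4 acetochlor, 4 alachlor and 5 dimethenamid libraries, and above it lay acetochlor at 3.7 and 33.3 µM and alachlor at 0.14 and 33.3 µM. The class change of Nqo1 was 0.42 ± 0.23 (adjusted p = 0.446), and without the highest dose of each compound it was -0.26.

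Gclc and Hmox1 differed between compounds at 33.3 µM in these single libraries. Gclc spanned 114 to 187 CPM in DMSO, reached 255 CPM with acetochlor at 33.3 µM and read 128 CPM with alachlor at 33.3 µM, within the DMSO range. Dimethenamid gave 177, 214, 178, 188, 205 and 217 CPM from 0.4 to 100 µM. Hmox1 spanned 241 to 595 CPM in DMSO, with 529, 589, 647, 453, 677 and 837 CPM for acetochlor, 413, 644, 597, 550.2, 529 and 390.1 CPM for alachlor and 754, 713, 717, 875, 812 and 655 CPM for dimethenamid. All 6 dimethenamid libraries exceeded the DMSO range of Hmox1, as did 3 acetochlor and 2 alachlor libraries. The alachlor library at 33.3 µM had a library score of 1.19, and DMSO replicate 5, at a score of 1, was the lowest DMSO library for both genes. A difference between compounds and a departure of that library cannot be told apart here.

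Slc25a48 and Ahnak were the other genes called higher. Slc25a48, a carrier of the inner mitochondrial membrane, was at 0.750 to 3.48 CPM in DMSO and 1.54 to 9.22, 2.04 to 5.72 and 2.80 to 5.29 CPM with acetochlor, alachlor and dimethenamid, with a class change of 1.49 ± 0.29 (adjusted p = 0.0306). The counts behind it are low. Ahnak, a very large scaffold protein of the cell cortex, spanned 55.0 to 79.6 CPM in DMSO and read 92.5, 76.5 and 86.2 CPM at 33.3 µM, with a class change of 0.65 ± 0.12 (adjusted p = 0.0240). Its lowest values were 51.6 and 43.5 CPM at 0.14 µM of acetochlor and alachlor and 47.8 CPM at 11.1 µM of dimethenamid, and these 3 lay below the DMSO range.

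Lcn2 and Slc22a8 were called lower in the class trend. Lcn2, which encodes lipocalin 2, an iron-binding acute phase protein, read 486, 638 and 752 CPM in the lowest, median and highest DMSO library. Acetochlor gave 599, 414, 384, 341, 427 and 226 CPM, alachlor 627, 311, 304, 365, 329 and 229.5 CPM and dimethenamid 434, 495, 433, 581, 470.1 and 285 CPM in order of dose. Below the DMSO range lay 5 of 6 acetochlor, 5 of 6 alachlor and 4 of 6 dimethenamid libraries. The class change of Lcn2 was -0.89 ± 0.18 (adjusted p = 0.0448), the largest adjusted p of the 10. Slc22a8, an organic anion transporter, read 76.5, 96.3 and 114 CPM in DMSO and 41.9, 53.1 and 66.6 CPM at 33.3 µM of acetochlor, alachlor and dimethenamid. Of the 18 libraries 14 lay below its DMSO range, and the class change was -0.55 ± 0.10 (adjusted p = 0.0276).

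Sept4, a septin, and Rem1, a small GTPase of the RGK family, are counted at a few CPM. Sept4 spanned 2.84 to 5.46 CPM in DMSO and read 1.89, 0.954 and 2.24 CPM at 33.3 µM, with a class change of -1.33 ± 0.23 (adjusted p = 0.0207). Rem1 spanned 4.52 to 10.0 CPM in DMSO and read 0.757, 1.27 and 3.67 CPM at 33.3 µM, with a class change of -1.67 ± 0.32 (adjusted p = 0.0306). With dimethenamid the lowest Rem1 level was at the lowest dose, 1.66 CPM.

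**Figure D3:**
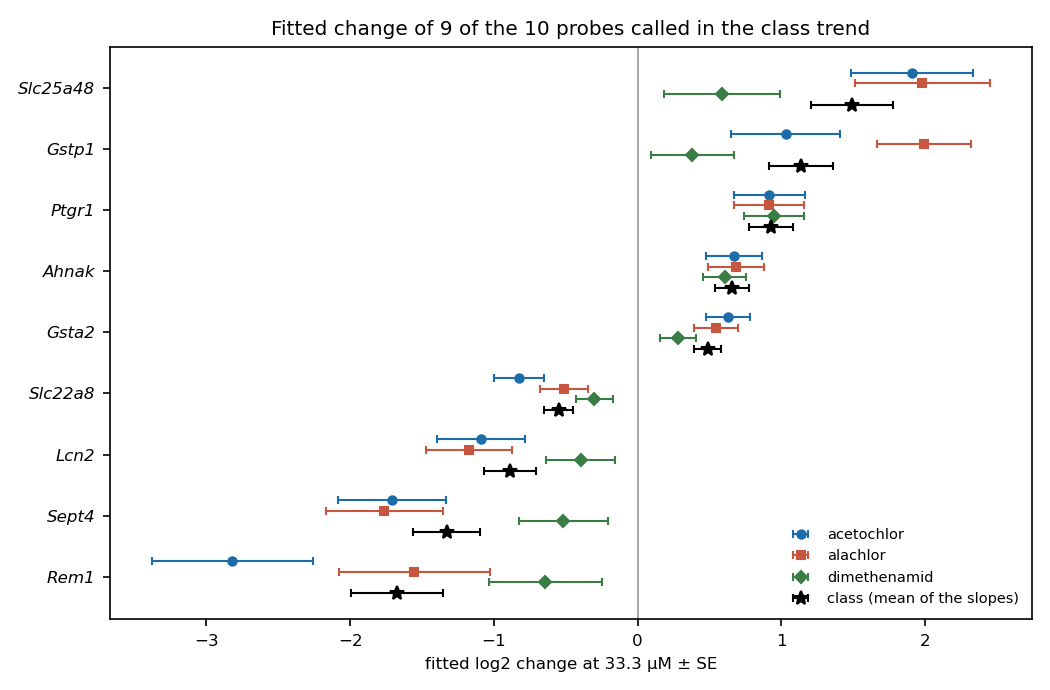
Fitted log2 change at 33.3 µM with its standard error (horizontal axis) for 9 of the 10 genes called in the class trend, 1 marker per compound and a star for the class. All 3 compounds share the sign of the class for each gene, with class changes from -1.67 (Rem1) to 1.49 (Slc25a48).

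These fits take DMSO as dose 0, so a difference between treated and DMSO wells that does not grow with dose enters them. In a fit of the treated libraries alone, added after the data were seen, the class changes of the 9 named genes kept their sign and 0 probes were called (807 unadjusted in edgeR). Ptgr1 was then at 0.66 ± 0.15, Gsta2 at 0.54 ± 0.12 and Gstp1 at 1.12 ± 0.20. Adjusted p for these 9 genes in that fit ran from 0.406 to 0.644. Over all 40 alternatives the 9 genes kept their sign, and each was called in 16 (Lcn2) to 31 (Ptgr1) of them.

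The second question was from which dose the class differed from DMSO. The 3 libraries at a shared dose, 1 per compound, were fitted with the 8 DMSO libraries and a plate term. The changes are therefore set against the 2 DMSO libraries of plate 1 and the 3 of plate 2. The DMSO libraries of plate 3, which read higher for several of these genes, added only to the estimate of spread. At 0.4 µM 53 probes were called higher (0.479%) and 19 lower (0.172%), and at 1.2 µM 42 higher (0.38%) and 14 lower (0.127%). At 3.7 and 11.1 µM 16 and 12 were called higher (0.145% and 0.109%) and 0 lower, with 487 and 643 lower at an unadjusted p under 0.05. At 33.3 µM 36 were called higher (0.326%) and 4 lower (0.0362%). The counts did not grow from dose to dose. Leaving out DMSO replicate 5 raised them to 234, 196, 95, 58 and 77 in order of dose, and the lowest counts, without DMSO replicate 2, 3, 4 or 6, were 35, 15, 5, 1 and 10. Without DMSO replicate 7 they were 8 at 3.7 µM and 20 at 33.3 µM, and without DMSO replicate 8 they were 46 at 0.4 µM, 7 at 3.7 µM and 16 at 33.3 µM. Without dimethenamid they were 1, 2, 0, 0 and 4. Without a plate term in the fit the counts were lower at every dose, as given in the section on processing.

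Across the 5 shared doses 10 probes were called at every dose (0.0905% of those tested), all higher, and apart from Ptgr1 none was called in the class trend. They were Tmem255b, Slc16a3, Prr15, Mgarp, Spns2, Mt10.7 (a symbol printed as the table gives it), Adm, Hmox1, Ptgr1 and Wee1, and were singled out after their values were seen. Adm, which encodes the vasodilator peptide adrenomedullin, changed by 1.55, 1.36, 1.31, 1.49 and 1.85 on the log2 scale at 0.4, 1.2, 3.7, 11.1 and 33.3 µM. Slc16a3, a lactate exporter, changed by 3.77, 3.47, 3.36, 3.44 and 4.01, and Mgarp, a mitochondrial protein, by 2.58, 2.44, 2.40, 2.25 and 2.71. Hmox1 changed by 1.23, 1.21, 1.04, 1.38 and 1.33 and Wee1, a kinase that holds back entry into mitosis, by 0.91, 0.79, 0.90, 0.82 and 0.93. Ptgr1 went from 0.66 to 1.20.

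Of 260 genes of the pathway lists, 9 were called for the class at 1 or more shared doses, against 0.805% of all probes. The higher ones were Ptgr1 and Hmox1 at all 5 doses, Cyp1a1 and Vldlr at 3, Mt1a and Mt2A at 2 and Btg2 at 1, and the lower ones Lcn2 and Fdps, a cholesterol synthesis enzyme, at 0.4 µM.

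By library, Adm read 82.9, 98.1 and 197 CPM in the lowest, median and highest DMSO library, 126, 174, 204, 177, 175 and 351 CPM with acetochlor and 117, 207, 205, 181, 192 and 256 CPM with alachlor. With dimethenamid it read 389, 266, 289, 332, 314 and 311 CPM, highest at the lowest dose. The DMSO libraries spanned 82.9 to 91.5 CPM for Adm on plate 1 and 95.6 to 100.4 CPM on plate 2, and the highest was on plate 3. Acetochlor at 0.4, 3.7 and 11.1 µM and alachlor at 3.7 and 11.1 µM lay within the range of the 8 DMSO libraries. Slc16a3 spanned 1.75 to 17.8 CPM in DMSO, with at most 2.22 CPM on plate 1 and 2.78 CPM on plate 2. It read 1.58 and 2.21 CPM at 0.14 µM of acetochlor and alachlor, below 3 CPM, against 7.10 to 33.8 CPM at their higher doses.

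Other treated wells stood above their DMSO wells for the same probes. Of 75 other treated libraries on plate 1, 75 read above both DMSO libraries of that plate for Adm, 75 for Hmox1, 75 for Wee1 and 63 for Slc16a3. The same held for genes of the class trend, with 71 of 75 for Gstp1, 69 for Ptgr1 and 55 for Gsta2. On plate 2, 80 of 81 other treated libraries stood above the 3 DMSO libraries of the plate for Adm, 75 for Ptgr1, 46 for Gsta2 and 20 for Gstp1. For the genes called lower, 103 of 165 other treated libraries of the series lay below the range of the 8 DMSO libraries for Rem1, 88 for Slc22a8, 62 for Lcn2 and 53 for Sept4. Differences from DMSO in these genes were thus also found with other chemicals. The DMSO wells of plates 1 and 2 lay in row H, which also held wells of other chemicals, and those of plate 3 in row A. The chloroacetamide wells lay in rows D to F. The part of well position in these differences was not tested.

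**Figure D4:**
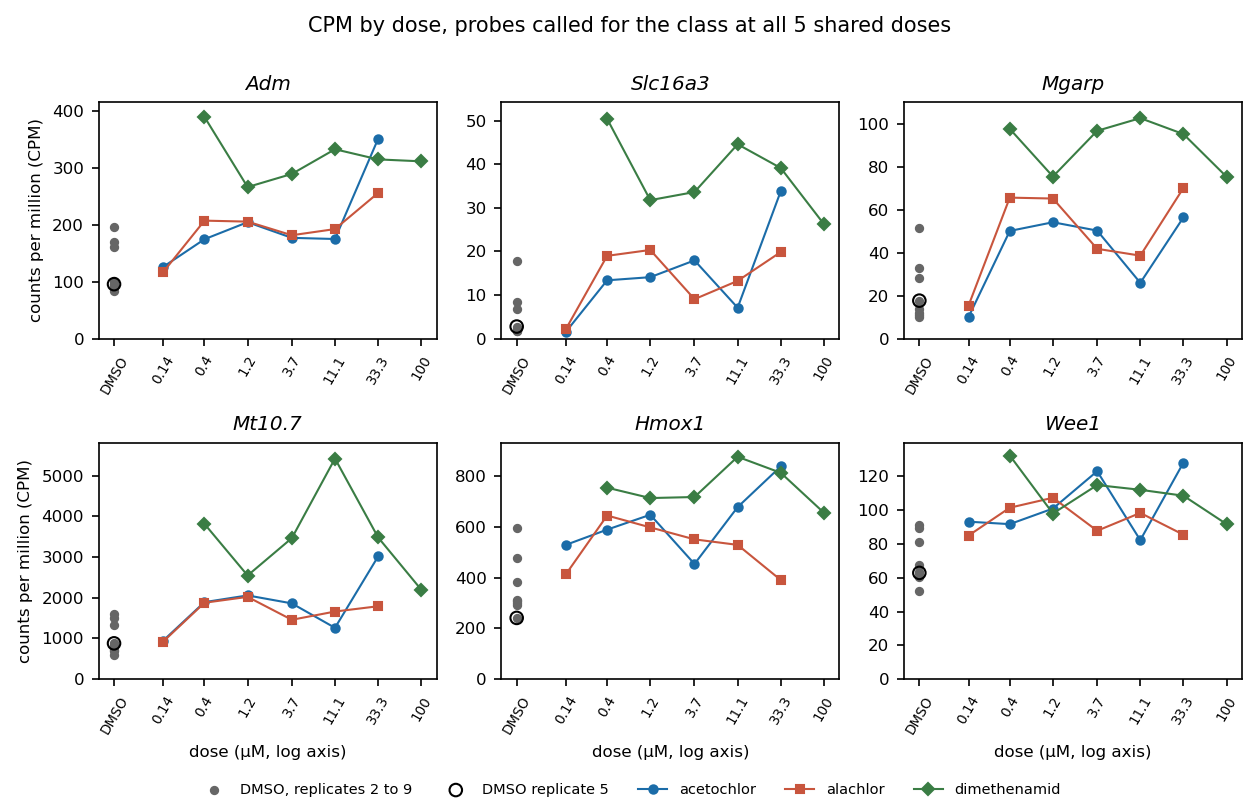
CPM (linear axis from 0) against dose in µM (log axis, DMSO at the left) for 6 of the 10 probes called at all 5 shared doses, 1 point per library, with DMSO replicate 5 ringed. From 0.4 µM all treated points lie above the DMSO libraries of plates 1 and 2, without a steady rise with dose. The DMSO libraries of plate 3 lie higher, and some treated points from 0.4 µM fall within the range of all 8. At 0.14 µM Slc16a3 lies within the DMSO range or below it.

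Taken compound by compound, acetochlor had 0 probes called (0%, with 594 at an unadjusted p under 0.05 in edgeR and 7 called by DESeq2) and dimethenamid 0 (0%, with 634 unadjusted and 2 called by DESeq2). The smallest p for acetochlor included Hspa1a and Fosl1. Hspa1a, the inducible HSP70 chaperone, spanned 19.8 to 33.3 CPM in DMSO, 35.2, 35.0, 38.8, 41.7, 31.4 and 88.0 CPM with acetochlor and 29.3 to 46.3 CPM with alachlor. The acetochlor library at 33.3 µM stood apart, and the fitted change was 1.17 ± 0.26 (adjusted p = 0.254 in edgeR). Fosl1, a subunit of the AP-1 transcription factor, spanned 28.2 to 53.1 CPM in DMSO and gave 72.6, 44.2, 46.1, 53.5, 89.1 and 82.7 CPM, with a change of 1.10 ± 0.24 (adjusted p = 0.254). Its acetochlor libraries at 0.14, 11.1 and 33.3 µM stood highest.

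For dimethenamid the smallest p belonged to Ephx1, microsomal epoxide hydrolase, which turns epoxides into diols. Ephx1 spanned 791 to 1056 CPM in DMSO, and the 6 dimethenamid libraries gave 849, 794, 827, 963, 1015 and 1364 CPM from 0.4 to 100 µM. The 100 µM library was the only dimethenamid library above the DMSO range. Acetochlor stayed at 781 to 837 CPM and alachlor at 774 to 887 CPM. The fitted change was 0.46 ± 0.092 for dimethenamid (adjusted p = 0.405 in edgeR) and -0.17 ± 0.12 and -0.015 ± 0.12 for acetochlor and alachlor.

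Alachlor had 156 probes called higher (1.41%) and 9 lower (0.0814%), and these rest on its 33.3 µM library. Without that library 0 probes were called (164 at an unadjusted p under 0.05 in edgeR), without DMSO replicate 3 also 0 (2522 unadjusted), and without DMSO replicate 2 the count was 2. It was 912 without DMSO replicate 5 and 1949 without alachlor at 11.1 µM, and 17 of the 26 libraries, left out singly, moved it by over 1.5 times. The library score was 1.19 in the 33.3 µM library, and with the score as a covariate the count was 0.

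Each treated library was also tested alone in a fit with the 8 DMSO libraries and a plate term, which compares libraries and not conditions. An acetochlor or alachlor library was thus set against the 2 DMSO libraries of plate 1. A dimethenamid library was set against the 3 of plate 2, so the counts of the compounds rest on different controls. Plate 3 DMSO added only to the estimate of spread. Alachlor had 1 probe higher (0.00905%) and 1 probe lower (0.00905%) at 33.3 µM, 2 in all (0.0181%), with 3889 at an unadjusted p under 0.05 in edgeR, and 1 probe higher (0.00905%) at 1.2 µM. Acetochlor had 26 probes lower (0.235%) at its lowest dose, 0.14 µM, and 3 probes higher (0.0271%) and 3 probes lower (0.0271%) at 33.3 µM. Dimethenamid had 13 probes higher (0.118%) and 3 probes lower (0.0271%) at 0.4 µM, 9 probes higher (0.0814%) at 3.7 µM, 66 probes higher (0.597%) and 12 probes lower (0.109%) at 11.1 µM, 22 probes higher (0.199%) and 3 probes lower (0.0271%) at 33.3 µM and 1 probe higher (0.00905%) at 100 µM. The other 9 libraries had 0 called and 209 to 884 at an unadjusted p under 0.05 in edgeR, and the numbers did not rise in order of dose for dimethenamid.

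The genes called for alachlor are given with the fit that leaves out its 33.3 µM library, in which none of them was called. Cdkn1a, the p53-induced inhibitor of cyclin-dependent kinases, changed by 2.01 ± 0.44 (adjusted p = 0.0365) with that library and by 0.21 ± 0.72 without it. It read 24.6 CPM at 33.3 µM and 4.26 to 7.76 CPM at the 5 lower doses. DMSO replicate 5 read 19.5 CPM and the other 7 DMSO libraries 4.44 to 7.75 CPM. Cebpb, a transcription factor of the liver, showed the same pairing of libraries, at 96.2 CPM in alachlor at 33.3 µM, 76.8 CPM in DMSO replicate 5 and at most 24.4 CPM in the other DMSO libraries. That Cebpb probe changed by 2.10 ± 0.52 with the 33.3 µM library and 0.10 ± 0.88 without it, but the other 2 tested Cebpb probes, which have more counts, were at 0.18 and -0.29. Rdh14, a retinol dehydrogenase, was likewise at 2.05 ± 0.39 (0.36 ± 0.61 without it) for 1 probe and 0.042 for the other.

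Taldo1, transaldolase of the pentose phosphate pathway, was called higher with alachlor at 2.08 ± 0.50 (adjusted p = 0.0432), and Hnrnpl, an RNA-binding splicing factor, at 3.28 ± 0.67. Without the 33.3 µM library they were at 1.28 ± 0.89 and 0.83 ± 1.34. With alachlor, the NRF2 list had 2 of 29 tested genes called higher, Taldo1 included, and the glutathione list 2 of 20, Gstp1 and Gstk1, against 1.41% of all probes. Gstk1, the mitochondrial and peroxisomal transferase, was at 1.03 with the 33.3 µM library and 0.34 ± 0.35 without it, and Gstp1 at 0.84 ± 0.49 without it. Both lists had 0 called for alachlor without that library, as all probes did. The genes called lower with alachlor included Me3, a mitochondrial malic enzyme, at -2.20 ± 0.53, Sept4 at -1.76 ± 0.41, Lcn2 at -1.18 ± 0.30 and C1qc, a complement subunit made by macrophages. C1qc fell by 1.20 ± 0.28 on the log2 scale (adjusted p = 0.0412). Without the 33.3 µM library Me3 was at -1.31 ± 0.62, Sept4 at -1.42 ± 0.57, Lcn2 at -1.36 ± 0.44 and C1qc at -0.83 ± 0.38. Of 12 listed macrophage markers 10 had a tested probe. Summed over these 10, alachlor libraries held 83.5 to 129.7 CPM, acetochlor 112.1 to 120.8 CPM, dimethenamid 101.9 to 129.6 CPM and DMSO 110.2 to 150.2 CPM. C1qc was the 1 macrophage marker of 10 called lower with alachlor, against 0.0814% of all probes. The part of these cells in the result was not tested. Fewer cells of a type and less RNA per cell cannot be told apart in these libraries.

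The third question was whether the compounds differed from each other at matched doses. Acetochlor and alachlor were compared over 6 doses on 1 plate, and each was compared with dimethenamid over the 5 shared doses from 0.4 to 33.3 µM, on different plates joined through DMSO. Adjusted over all probes and the 3 pairs together, 0 probes (0%) were called for any pair in edgeR. At an unadjusted p under 0.05 there were 2341 for acetochlor against alachlor, 466 for acetochlor against dimethenamid and 2342 for alachlor against dimethenamid, and DESeq2 called 9, 6 and 11. A p that misses the threshold does not show that the compounds act alike, so each difference is given with its interval.

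For the isomers acetochlor and alachlor, which differ in the alkoxymethyl group on the nitrogen and in the alkyl groups on the ring, Ptgr1 differed by 0.0029 (95% interval -0.60 to 0.61) on the log2 scale, acetochlor minus alachlor. The difference was 0.084 (95% interval -0.29 to 0.46) for Gsta2 and -0.97 (95% interval -1.86 to -0.070) for Gstp1. For Hspa1a it was 0.61 (95% interval -0.051 to 1.27) and for Fosl1 0.75 (95% interval 0.15 to 1.35). With all libraries the Gstp1 difference is on the alachlor side and those of Hspa1a and Fosl1 are on the acetochlor side. Their adjusted p were 0.299, 0.352 and 0.263 in edgeR. The Gstp1 difference includes the alachlor library at 33.3 µM. Without that library the alachlor trend of Gstp1 was 0.84 ± 0.49, beside 1.03 for acetochlor in the main fit. These come from different fits and lie within the standard error, so they do not settle the side of the difference. The smallest p of the pair included Gnl1 and Ptcd3, both with an adjusted p of 0.244 in edgeR. Gnl1, a GTP-binding protein, was at -1.52 (95% interval -2.21 to -0.82). Ptcd3, a mitochondrial ribosome factor, was at 1.33 (95% interval 0.71 to 1.96). Without alachlor at 33.3 µM and DMSO replicate 5, Gnl1 was at -0.95 and Ptcd3 at 0.96.

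Dimethenamid has a thiophene ring in place of the phenyl ring of the other two compounds. For Ptgr1 the fitted difference was -0.45 (95% interval -1.25 to 0.36) for acetochlor minus dimethenamid and -0.42 (95% interval -1.24 to 0.39) for alachlor minus dimethenamid. For Gstp1 they were 0.71 (95% interval -0.57 to 1.99) and 2.17 (95% interval 0.99 to 3.36), the second with an unadjusted p of 0.00112 and an adjusted p of 0.244. For Ephx1 they were -0.56 (95% interval -0.98 to -0.14) and -0.41 (95% interval -0.82 to 0.0011), here without the 100 µM library, and for Lcn2 -1.26 (95% interval -2.06 to -0.46) and -1.14 (95% interval -2.04 to -0.25). None of these passed after adjustment in edgeR. The Gstp1 difference between alachlor and dimethenamid includes the alachlor library at 33.3 µM. Without that library the alachlor trend of Gstp1 fell from 1.99 to 0.84.

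The pairs with dimethenamid had their smallest p at other genes. Scd1, the stearoyl-CoA desaturase that makes monounsaturated fatty acids, spanned 279 to 406 CPM in DMSO, 252, 439, 383, 275, 260.3 and 296 CPM with acetochlor and 350.4, 422, 405, 446, 476 and 383 CPM with dimethenamid, and differed by -1.34 (95% interval -1.92 to -0.76), with an adjusted p of 0.244 in edgeR. Fosl1 differed by 1.66 (95% interval 0.94 to 2.39) between acetochlor and dimethenamid, and Tgm1, transglutaminase 1, by 2.16 (95% interval 1.23 to 3.09). Tfrc, the transferrin receptor, spanned 282 to 383 CPM in DMSO, 427, 366, 381, 409, 445 and 475 CPM with alachlor and 265, 288, 293, 216, 255 and 347 CPM with dimethenamid, and differed by 1.01 (95% interval 0.57 to 1.44), with an adjusted p of 0.244 in edgeR. Kpna2, a nuclear import adaptor, differed by 1.28 (95% interval 0.71 to 1.85) between alachlor and dimethenamid. Without alachlor at 33.3 µM and DMSO replicate 5, the difference was 0.61 for Kpna2 and 0.97 for Tfrc. These genes were named because their p was the smallest of their pair.

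Most tested genes of lipid synthesis had a negative class change, without any call. Of all probes 48.7% were positive in the class trend, and 680 of 11055 were lower at an unadjusted p under 0.05 in edgeR. Of 10 tested genes of fatty acid synthesis 3 had a positive class change, the median was -0.30, and 0 were called (4 lower and 1 higher at an unadjusted p under 0.05 in edgeR). Fasn, fatty acid synthase, spanned 26.4 to 70.7 CPM in DMSO with replicate 5 lowest. It gave 57.0, 40.5, 39.0, 40.9, 39.6 and 30.6 CPM with acetochlor, 55.8, 41.9, 43.6, 50.3, 38.5 and 7.31 CPM with alachlor and 19.3, 32.7, 23.8, 19.1, 22.6 and 25.8 CPM with dimethenamid. The alachlor library at 33.3 µM was far below the rest and 5 of 6 dimethenamid libraries lay below the DMSO range. The class change of Fasn was -1.11 ± 0.25 (adjusted p = 0.106), that of Acly, which supplies cytosolic acetyl-CoA, -0.46 ± 0.13, and that of Thrsp, a lipogenic regulator, -0.90 ± 0.34. Without alachlor at 33.3 µM and DMSO replicate 5 they were -0.76, -0.39 and -0.47.

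Fatty acid elongation, the step these herbicides block in plants, was represented by 9 tested rat genes, with 0 called in the class trend, 2 lower at an unadjusted p under 0.05 and a median of -0.21. Elovl6, which extends palmitate, was at -0.99 ± 0.34 (adjusted p = 0.239), with 7.65 to 23.1 CPM in DMSO and 7.07 to 22.2, 2.38 to 19.0 and 4.14 to 12.5 CPM with acetochlor, alachlor and dimethenamid. Elovl1, an elongase of very long chains, was at -0.66 ± 0.25 for the probe with more counts and -0.041 for the other. Of 21 genes of cholesterol synthesis 3 had a positive class change, the median was -0.25 and 7 were lower at an unadjusted p under 0.05. They included Fdft1, squalene synthase, at -0.55 ± 0.14, Acat2 at -0.40 ± 0.11 and Hsd17b7 at -0.30 ± 0.094, with adjusted p of 0.146, 0.165 and 0.208.

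Genes of the receptors that sense foreign chemicals did not pass in any trend, and 1 of them, Cyp1a1, was called higher by dose. For CAR and PXR, receptors that raise drug-metabolising P450 genes, 18 genes were tested with a median class change of -0.093. Cyp2b2 was at -0.44 ± 0.44, Cyp3a23/3a1 at -0.34 ± 0.20, Por, the electron donor of the P450 enzymes, at 0.37 ± 0.14 and Alas1, which starts haem synthesis, at 0.37 ± 0.14. Por in DMSO replicate 5 lay outside the other DMSO libraries. Of 4 tested genes of the aryl hydrocarbon receptor AhR, Cyp1a1 had the largest class change, 1.34 ± 0.52 (adjusted p = 0.283), with 0 to 3.40 CPM in DMSO, 0.789, 5.67, 3.67, 2.70, 3.02 and 8.71 CPM with acetochlor, 0.789, 3.47, 2.76, 4.53, 3.71 and 2.23 CPM with alachlor and 4.04, 6.49, 3.49, 6.52, 7.54 and 2.43 CPM with dimethenamid. Cyp1a1 lay above the DMSO range in 3 acetochlor, 3 alachlor and 5 dimethenamid libraries, and the highest of them did not follow the order of dose. In the tests by dose its class change was 2.72, 2.74, 2.42, 2.85 and 3.29 at 0.4 to 33.3 µM, called at 0.4, 1.2 and 33.3 µM (adjusted p of 0.0187, 0.0335 and 0.0492 in edgeR). The 8 DMSO libraries held 0 to 18 counts for Cyp1a1, and those of plates 1 and 2 at most 6, so these changes lie near the floor. Of 165 other treated libraries 72 lay above the DMSO range of Cyp1a1.

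PPARα, which drives fatty acid oxidation, had 34 tested genes with 8 positive, a median of -0.22 and 0 called, with 7 lower and 1 higher at an unadjusted p under 0.05. With dimethenamid 3 of 34 were positive, and the summed level of the list was 4243 to 5387 CPM against 6033 to 7112 CPM in DMSO. Vnn1, a pantetheinase, was at -0.42 ± 0.11 and Acaa1b, a peroxisomal thiolase, at -0.27 ± 0.10. Of 13 tested cell cycle genes 0 had a positive dimethenamid trend, with 6 lower at an unadjusted p under 0.05 and 0 called. Of all probes 46.5% were positive with dimethenamid, and 372 of 11055 were lower at an unadjusted p under 0.05. The summed level of the cell cycle list was 72.4 to 87.1 CPM with dimethenamid and 104 to 133 CPM in DMSO. Neither sum was taken for the other treated libraries of the plate, so it is not known whether they differ from DMSO in the same way. Ccnd1, cyclin D1, spanned 4.54 to 10.2 CPM in DMSO and gave 3.31, 3.48, 2.37, 2.95, 0.815 and 1.54 CPM with dimethenamid. The dimethenamid values rest on 4 to 32 counts per library. Some acetochlor and alachlor libraries also lay below the DMSO range of Ccnd1. Its fitted change was -0.38 for acetochlor, -0.29 for alachlor and -1.79 for dimethenamid, none of them called.

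Stress pathways beyond NRF2 gave no call in the class trend. The integrated stress response had 23 tested genes with a median of -0.096. Asns, asparagine synthetase, was at -0.39 ± 0.12, Pycr1, of proline synthesis, at -0.42 ± 0.13, and Fgf21, a fasting hormone of the liver, at -0.51 ± 0.17, with adjusted p from 0.196 to 0.219. On the other side lay Ppp1r15a, a phosphatase subunit that reverses the response, at 0.36 ± 0.12 (adjusted p = 0.225), and Vldlr, a lipoprotein receptor, at 0.83 ± 0.32 (adjusted p = 0.273). The unfolded protein response had 13 tested genes with a median of -0.012. Among them 1, Herpud1, was called higher with alachlor alone, against 1.41% of all probes. Herpud1 was at 1.03 ± 0.22, and at 0.14 ± 0.30 without the 33.3 µM library. Heat shock had 13 with a median of -0.041, and Hspa1a was at 0.51 ± 0.17 in the class trend. Of 4 tested genes for metallothioneins and zinc transport, Mt1a was at 1.21 ± 0.37 and Mt2A at 0.69 ± 0.34, and the zinc transporters Slc39a14 and Slc30a1 at 0.0010 and 0.061. Mt1a, a zinc-binding metallothionein, spanned 56.7 to 167 CPM in DMSO and 230.2 to 555 CPM with dimethenamid, without overlap. Of 165 other treated libraries 98 lay above its DMSO range.

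The remaining lists had 0 or 1 gene called in the trends. The p53 list had 16 tested genes, a median of 0.056 and 1 called with alachlor, Cdkn1a. Of all probes 1.41% were called higher with alachlor, which is the share to set beside Cdkn1a, Dusp1 and Apoa1. Of 18 acute phase genes Lcn2 was called lower in the class trend, against 0.0362% of all probes. The median was -0.042, with Lbp, the lipopolysaccharide-binding protein, at -0.33 ± 0.091 (adjusted p = 0.146). Of 12 immediate early genes 1 was called with alachlor, Dusp1, a phosphatase that acts on MAP kinases, at 0.49 ± 0.12 (0.16 ± 0.18 without the 33.3 µM library), and the median class change was -0.015. The 6 tested genes of bile acid synthesis and transport had a median of -0.17 and 0 called. Of 15 hepatocyte markers 0 were called in the class trend, and Apoa1 was called higher with alachlor, at 1.01 (0.27 ± 0.35 without the 33.3 µM library). Endothelial markers summed to 35.2 to 45.5 CPM in DMSO and 35.7 to 51.9 CPM with the compounds, and stellate cell markers to 52.8 to 95.1 CPM in DMSO, 45.8 to 70.5 with acetochlor, 23.2 to 68.6 with alachlor and 58.0 to 100.3 CPM with dimethenamid. The single tested bile duct marker, Epcam, lay between 10.5 and 26.1 CPM with the compounds and between 15.3 and 29.2 CPM in DMSO.

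**Figure D5:**
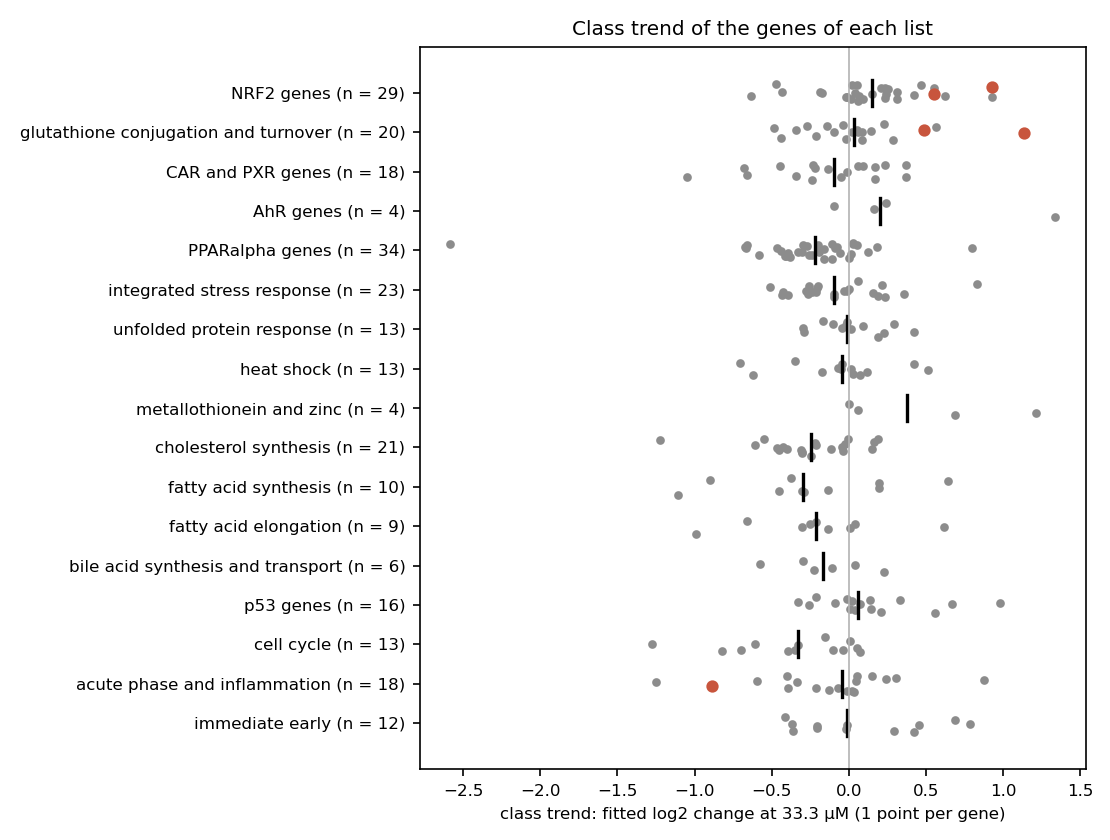
Class trend of the tested genes of each list (horizontal axis, fitted log2 change at 33.3 µM), 1 point per gene, with a bar at the median and called genes in red. The red points include Ptgr1, Gsta2, Gstp1 and Lcn2, and the medians run from -0.33 (cell cycle) to 0.38 (metallothionein and zinc).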

How the data were processed

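The authors deposited whole-number counts per probe for 192 TempO-Seq libraries and 22253 probes (21143 gene symbols). Per the submitters' processing notes the aligner was Bowtie. Its version and the build are not given in the sources used here. Groups, doses, plates and wells come from the labels. The labels name log2 dose steps, while the doses they list are about 3-fold apart, and the listed doses were used. The labels do not say whether wells are separate cultures, so p-values reflect only how these libraries vary, possibly for technical reasons. Amplified ligation products are not independent molecules. All columns were matched, 0 were identical, and the closest pair differed beyond sampling noise (chi-square per degree of freedom 2.65).

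A probe was tested where 6 or more libraries reached 1.741 CPM, equal to 10 counts in a library of median depth, which 11055 did. In R 4.3.3, edgeR 4.0.16 was run with TMM scaling, plate as a factor, its quasi-likelihood F test on log2(1 + dose) and Benjamini-Hochberg adjustment at 0.05, and it gave every adjusted p in the text. It was tested on simulated data. A list gene with more than 1 probe is represented by its most counted probe. The compounds, gene lists and tests were chosen with earlier results of these data known. Named genes are called probes whose mean count reached 10 and whose sign held with the highest doses left out, up to 10 in each direction, the 5 smallest p where fewer were called, up to 4 per list, and a fixed panel. Genes outside this rule, such as those called at all 5 doses, were chosen after their values were seen, and some genes it names are not described. Alternatives were DESeq2 1.42.0, its size factors, no filter, no plate term, dose by rank, DMSO replicate 1 included, the library score as a covariate, own or same-plate fits, and leaving out the highest doses, each library or each compound. Promoters matched by symbol for 4 of the 6 genes called higher. The results for 1 called gene are not reported here.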

Additional observations from a re-analysis of the deposited data

Results flagged for a closer look

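Among 77 genes checked, 10 had a DMSO library that lay far from the other 7, by a gap that is large against the range of the group (Dixon's test). Chance gives about 1 in 20 such groups. DMSO replicate 5 was that library for 6 of them: Fasn at 26.4 CPM, Thrsp at 21.9 CPM, Por at 437 CPM, Cdkn1a at 19.5 CPM, Hnrnpl at 4.52 CPM and Cebpb at 76.8 CPM. In Cdkn1a and Cebpb replicate 5 was the highest DMSO library and in Fasn and Thrsp the lowest. The others were Hspa1a at 19.8 CPM in DMSO replicate 3, Dusp1 at 817 CPM in DMSO replicate 9, Ephx1 at 1056 CPM in DMSO replicate 2 and Scd1 at 406 CPM in DMSO replicate 2.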

How the results depend on the processing

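Alternatives changed 1 choice at a time, and those with treated libraries only, with a term for treated wells, or without alachlor at 33.3 µM and DMSO replicate 5 were chosen after seeing the data. DESeq2 called 7 probes for acetochlor, 583 for alachlor, 2 for dimethenamid, 69 for the class trend, 9, 6 and 11 for the pairs and 233, 180, 128, 187 and 178 for the class at 0.4 to 33.3 µM. Dose by rank gave 1, 5 and 5 for the compounds and 104 for the class. The library score as a covariate gave 26, 0 and 2 for the compounds and 41 for the class. Fits of their own gave 1 for alachlor, no filter 39 and the same plate 2. Without a plate term alachlor had 2, dimethenamid 3, each pair with dimethenamid 1, and the class 3, 12, 0, 0 and 26 by dose. A term for treated wells gave 60 for alachlor, 1 for dimethenamid and 0 for the class, and treated libraries only 3 and 0 for alachlor and the class. Without the highest doses, or with DMSO replicate 1, alachlor and the class had 0 (168 and 612, or 2846 and 1698, unadjusted in edgeR), and by dose the class had 2, 2, 1, 0 and 7 with replicate 1. Without acetochlor the class had 57, and 31, 20, 21 and 22 at 0.4, 1.2, 11.1 and 33.3 µM. Without alachlor it had 0, and 31 and 85 at 0.4 and 33.3 µM. Without dimethenamid it had 2, and 1, 2, 0, 0 and 4 by dose. Without alachlor at 33.3 µM and DMSO replicate 5, alachlor and the class had 0, and by dose 234, 196, 95, 58 and 268.

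Leaving out 1 library at a time gave 0 to 23 for the class trend, 0 to 1949 for alachlor, 0 to 1 for acetochlor, and 0 for dimethenamid and each pair. By dose the ranges were 35 to 234, 15 to 196, 5 to 95, 1 to 58 and 10 to 77. The 1 call for acetochlor came without acetochlor at 0.14 µM or dimethenamid at 0.4 µM. The count for alachlor also moved without DMSO replicate 8 (28). By dose the class also moved without DMSO replicate 3 (43 at 0.4 µM, 6 at 3.7 µM) or 4 (42, 36 and 12 at 0.4, 1.2 and 33.3 µM), and without DMSO replicate 6 (14 at 33.3 µM). The class change turned for Txnrd1 (0.043 without the highest doses, 0.055 without alachlor), Gclm (-0.14 without dimethenamid, -0.049 with treated libraries only, -0.038 with a term for treated wells, and -0.094 to 0.28 with 1 library left out at a time) and Nqo1 (-0.26 without the highest doses). The causes were not tested. No paired analysis was possible because each dose has 1 library and the DMSO numbers pair no libraries. With 1 library per dose, a dose is read only through the fit across doses, and probes of few counts, such as Slc25a48, Sept4 and Rem1, are limited by depth.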

Other observations

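Oltipraz, a dithiolethione used as a reference activator of NRF2, was present as 1 library at 30 µM on plate 2, which gives values with no replicate. It read 1883 CPM for Gsta2, 827 for Ptgr1, 221 for Gstp1, 451 for Nqo1, 697 for Gclc and 3332 for Ephx1. Each of these lay above all 18 chloroacetamide libraries. Sulforaphane, another reference activator of NRF2, was present as 1 library at 10 µM and read 246 CPM for Gsta2, 361 for Ptgr1, 29.2 for Gstp1, 82.5 for Nqo1, 174 for Gclc and 485 for Ephx1. Of these Ptgr1 and Nqo1 lay above the DMSO range and Ephx1 below it. The sulforaphane library held 582071 counts, the fewest of all 192, which have a median of 5745085. Its correlation with the DMSO mean was 0.80, against 0.83 for DMSO replicate 1, which was left out. Its values are therefore uncertain, and that of Gstp1 rests on few counts. The highest chloroacetamide values were 360.4 CPM for Gsta2, 373 for Ptgr1 and 94.4 for Nqo1.

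Irf7 and Isg15, genes raised by interferon, were chosen after their values were seen. Irf7, a transcription factor, spanned 7.65 to 20.0 CPM in DMSO, with replicate 5 lowest, and gave 5.05, 6.77, 5.93, 7.53, 7.62 and 4.54 CPM with acetochlor, 5.05, 10.4, 8.96, 4.08, 6.18 and 2.86 CPM with alachlor and 6.62, 11.1, 3.49, 7.77, 6.11 and 5.29 CPM with dimethenamid. Below the DMSO range lay 6, 4 and 4 of 6 libraries. The class change was -1.04 (adjusted p = 0.178 in edgeR), which is not a call. Isg15, a ubiquitin-like protein, was at -1.26 (adjusted p = 0.232), with 144 to 302 CPM in DMSO and 44.8 to 394, 79.7 to 397 and 72.2 to 209 CPM with acetochlor, alachlor and dimethenamid.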
